A study of Mus musculus with 12 samples.

Results

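Allele reads were followed at 22 SNPs of F1 hybrid mice that were amplified from genomic DNA, liver mRNA and muscle mRNA, with the DNA amplicons sequenced in pool 1, the liver amplicons in pool 2 and the muscle amplicons in pool 4. These 22 are all the SNPs with liver mRNA in pool 2 and muscle mRNA in pool 4, among 89 SNPs in the series and 50 measured in both tissues; another 28 two-tissue SNPs had muscle in pool 3 and liver in pool 4. They came from 4 crosses of inbred strains, with 8 SNPs from A/J-C57BL/6J, 6 from CAST/EIJ-PWD/PHJ, 5 from FVB/NJ-PWD/PHJ and 3 from WSB/EiJ-MOLF/EiJ. The fifth cross of the study, A/J-DBA/2J, gave none. All animals were F1 offspring taken at 4 weeks of age, and the labels name no treatment. For each cross and tissue, RNA came from 2 littermates whose tissue was combined (0.3 g each of liver or skeletal muscle), and DNA came from a piece of either tissue of one animal or the other (about 50 mg). Each cross is thus represented by 1 combined RNA sample per tissue, and each SNP and template by 1 amplification that was sequenced in 3 runs.

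An F1 animal carries both parental copies of a transcript in the same nucleus, so the 2 alleles meet the same transcription factors, RNA-binding proteins and microRNAs. A departure of the mRNA allele ratio from the DNA ratio is the usual readout of differences that act on the copy itself, such as promoter strength, splicing, RNA decay or a microRNA site present on 1 allele. MicroRNAs pair through their seed with sites in target mRNAs and lower the target's level. miR-122 is the characteristic microRNA of liver, while miR-1 and miR-133 are those of skeletal and cardiac muscle. The series chose its SNPs as sites of these microRNAs or as controls. Which of the 22 lies in which kind of site, the strain that carries each base, and the position and gene of each SNP were not analysed here, so alleles are called by their base.

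Each SNP had its own primer pair, and no pair was shared with another SNP. The 44 primers were 21 to 26 bases long (median 21) with a median GC content of 52.4% (30.8% to 61.9%). The same pair amplified DNA and both cDNAs of a SNP, so the templates of a SNP differ in their source and not in their primers. The pairs below belong to the 6 SNPs with the largest called difference between muscle and liver, in order of size, and then to the 3 deepest SNPs that had no called difference. Primers are written 5′ to 3′, and capitals mark the last 5 bases at the 3′ end, from which the polymerase extends.
rs29317345 forward: cgtaggtgggagtgtgATTGG
rs29317345 reverse: accagtgagaccaacaGCAGG
rs13460373 forward: gtttgatgacccgaatCCCTT
rs13460373 reverse: aggtgactgaggcacaCTGCT
rs33431534 forward: cacttgccacgtgtgtaaATGAC
rs33431534 reverse: ggtgagtctctggaggcGATAG
rs48362062 forward: ttcactaggaccctgcACCTG
rs48362062 reverse: accaggaaacgaagccaCATAC
rs28146867 forward: ttccagcctaaaacacTCCCC
rs28146867 reverse: agagccatcagccaggAACTT
rs27073510 forward: gagtgtgctgagtgtgAGGCA
rs27073510 reverse: ctaaccattcccttctcCCACA
rs50253287 forward: taaaggatggaagagcGGGAG
rs50253287 reverse: cggtcaatgtggtgacTGTTG
rs32323893 forward: ttcatgtgtgtctgcaAAGCC
rs32323893 reverse: acaaacccagggtcctTTCAC
rs31872413 forward: aaggcaggagtttgctGGAGT
rs31872413 reverse: gccccatgttgtctcaCATCT

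Read depth set the precision of each ratio. With the 3 runs added up, the median depth per SNP was 3280 reads for DNA (1370 to 8466), 4142.5 for liver (947 to 9638) and 3242 for muscle (488 to 8215). Run 3 of pool 4 was shallow, with 13880 muscle reads over these SNPs against 34526 and 31618 in the other runs. The 95% Wilson interval of a single run's share had a median half-width of 2.96 percentage points in DNA, 2.67 in liver and 3.15 in muscle, and reached 8.62 in muscle. The SD of a share over runs had a median of 1.75 points in DNA, 1.32 in liver and 2.08 in muscle. It was largest in every template at rs3685280, with 3.87, 4.94 and 7.30 points. rs30872764 had reads in 2 runs of liver and of muscle. Because each template had a pool of its own, template and pool cannot be told apart.

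In DNA, the allele share lay within 5 percentage points of equal at 19 of the 22 SNPs, against 13 in liver and 16 in muscle. Over all SNPs of the series with each template, the counts were 80 of 89 in DNA, 36 of 64 in liver and 48 of 75 in muscle. A departure from 1:1 was called at 4 SNPs by the exact binomial test (adjusted p under 0.05), against 24.7% of all 89 SNPs. At rs30872764 the T allele took 79.0%, 81.2% and 81.7% of DNA reads, a 4.14-fold excess over A (95% interval 3.71 to 4.62). At rs27073510 the A allele took 59.2%, 57.3% and 56.5% (1.37-fold over G, 1.30 to 1.44). At rs29317345 the T allele took 54.3%, 57.3% and 56.4% (1.27-fold over C, 1.20 to 1.34), and at rs31872413 the A allele took 53.9%, 50.6% and 54.2% (1.12-fold over C, 1.06 to 1.19). The DNA skew of these 4 amplicons was the same way in all 3 runs. Each mRNA ratio set against DNA below was divided by the DNA ratio of its SNP, and the ratio of muscle over liver uses no DNA reads. Whether cDNA amplicons carry the same skew as the DNA amplicon was not tested.

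The 3 comparisons between templates gave equal counts. Liver mRNA differed from DNA at 13 of the 22 SNPs (Fisher's exact test, adjusted over all 64 SNPs with liver mRNA), against 65.6% called among those 64. Muscle mRNA differed from DNA at 13 SNPs, against 62.7% of the 75 with muscle mRNA. Muscle differed from liver at 13 SNPs, against 62.0% of all 50 two-tissue SNPs. The share of the 22 was 59.1% in each comparison, close to these backgrounds. Effects of 1.5-fold or more were few, with 3 SNPs in liver (14.1% of all tested), 1 in muscle (17.3%), 2 between the tissues (16.0%) and 1, rs30872764, in DNA against 1:1 (5.62%). The median size over the 22 SNPs was 1.17-fold in liver, 1.16-fold in muscle and 1.15-fold between the tissues. Over all SNPs tested the medians were 1.18, 1.17 and 1.19-fold.

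Against DNA, 8 SNPs were called in both tissues towards the same allele, 2 in both tissues towards opposite alleles, 3 in liver alone, 3 in muscle alone and 6 in neither. Among all 50 two-tissue SNPs, 34.0% fell in the first class and 20% in the second. The shares of the other classes among these 50 were not counted. Both comparisons share the DNA reads of a SNP, so the classes are described without a test, and the direct ratio of muscle over liver, which uses no DNA reads, is given beside each.

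Of the 8 SNPs shifted towards the same allele, rs29317345 (A/J-C57BL/6J) had the widest range. Its C allele held 45.7%, 42.7% and 43.6% of DNA reads in runs 1 to 3, 52.4%, 54.7% and 54.8% of liver reads, and 69.4%, 70.4% and 71.5% of muscle reads. The runs of the 3 templates did not overlap, and liver lay between DNA and muscle. The shift from DNA was 1.49-fold in liver (95% interval 1.39 to 1.61) and 2.99-fold in muscle (2.71 to 3.31). The DNA itself was skewed towards T. Set against 1:1 in place of DNA, the log2 ratio of C over T went from 0.58 to 0.24 in liver and from 1.58 to 1.24 in muscle. Both were still called. C over T was 2.00-fold higher in muscle than in liver (1.82 to 2.21, adjusted p = 4.29e-45 by Fisher's exact test). This SNP had the largest ratio of the 22 both in muscle against DNA and between the tissues.

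Shifts in both tissues with liver ahead of muscle were found at 3 further SNPs. The C allele of rs33431534 (A/J-C57BL/6J) held 47.7%, 49.8% and 48.4% in DNA, 59.9%, 60.6% and 59.4% in liver, and 52.2%, 52.8% and 51.4% in muscle. Here muscle lay between DNA and liver, again without overlap of runs. The shift was 1.59-fold in liver (1.46 to 1.73) and 1.17-fold in muscle (1.09 to 1.25), and T over C was 1.36-fold higher in muscle than in liver (1.26 to 1.47, adjusted p = 2.35e-14, Fisher's exact test). rs29317345 and rs33431534 come from the same cross and so from the same RNA samples, and their order of liver and muscle was opposite.

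The A allele of rs27073510 (CAST/EIJ-PWD/PHJ) held 59.2%, 57.3% and 56.5% in DNA, 69.5%, 69.8% and 69.5% in liver, and 62.4%, 65.0% and 68.7% in muscle. Liver runs were nearly identical (SD 0.197 points, the smallest of the 22 in liver), while muscle runs spread over 3.17 points SD and lay below every liver run. The shift was 1.67-fold in liver (1.57 to 1.79) and 1.34-fold in muscle (1.22 to 1.47), and G over A was 1.25-fold higher in muscle (1.14 to 1.37, adjusted p = 4.74e-06, Fisher's exact test). The T allele of rs31853413 (A/J-C57BL/6J) held 46.3%, 49.4% and 50.7% in DNA, 57.6%, 53.9% and 55.3% in liver, and 51.9%, 52.0% and 50.9% in muscle. Its shift was 1.31-fold in liver (1.20 to 1.44) and 1.13-fold in muscle (1.03 to 1.23), with C over T 1.16-fold higher in muscle than in liver (1.08 to 1.25, adjusted p = 8.51e-05, Fisher's exact test). The muscle shift of rs31853413 was 0.18 on the log2 scale and was 0.09 and not called without run 1. Its liver shift went from 0.39 to 0.26 without run 1 and was still called.

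At rs27047329 (CAST/EIJ-PWD/PHJ), the SNP with the most DNA reads and the most muscle reads of the 22, muscle was ahead of liver. The T allele held 49.2%, 48.3% and 49.9% in DNA, 52.3%, 51.2% and 50.3% in liver, and 54.6%, 53.3% and 56.7% in muscle. All shifts were small but the runs of the templates were apart. They came to 1.09-fold in liver (1.02 to 1.16), 1.23-fold in muscle (1.16 to 1.31) and 1.14-fold between the tissues (T over C, 1.06 to 1.21, adjusted p = 3.30e-04, Fisher's exact test). The liver shift, 0.12 on the log2 scale, was 0.09 without run 1 and 0.10 without run 2, and was called in neither case.

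The other 3 SNPs shifted towards the same allele had no called difference between the tissues. The C allele of rs50253287 (CAST/EIJ-PWD/PHJ) held 49.5%, 48.1% and 50.6% in DNA, 55.9%, 55.0% and 54.9% in liver, and 53.1%, 53.8% and 52.1% in muscle. Muscle runs lay between those of DNA and liver, with shifts of 1.27-fold in liver (1.17 to 1.37) and 1.17-fold in muscle (1.08 to 1.26). The ratio between the tissues was 1.09-fold (T over C higher in muscle, 0.999 to 1.18, adjusted p = 0.0868 by Fisher's exact test). It was called with a quasi-binomial model, which takes the error from the spread between runs (adjusted p = 0.0406). That model lets the error fall below counting error, and the runs of this SNP lay close together (SD 0.552 points in liver and 0.842 in muscle). The call is therefore not a more cautious one than that of Fisher's exact test. The muscle shift of rs50253287, 0.22 on the log2 scale, was 0.16 and not called without run 2.

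At rs13460433 (CAST/EIJ-PWD/PHJ) the A allele held 50.8% ± 1.28 of DNA reads (SD, n = 3 runs), 59.9% ± 0.847 of liver reads and 56.3% ± 3.84 of muscle reads. The shifts were 1.44-fold (1.30 to 1.60) and 1.29-fold (1.16 to 1.44), and muscle and liver were within 0.989 to 1.26-fold of each other (C over A). At rs31872413 (WSB/EiJ-MOLF/EiJ) the C allele held 46.1%, 49.4% and 45.8% in DNA, 51.0%, 52.8% and 49.5% in liver, and 52.1%, 48.3% and 53.8% in muscle. Liver runs were all above DNA runs, whereas the muscle runs overlapped them. Neither mRNA ratio was called when set against 1:1 in place of DNA, while the DNA was skewed towards A. The ratio to DNA was 1.18-fold in liver (1.09 to 1.27) and 1.16-fold in muscle (1.02 to 1.33, adjusted p = 0.0493, Fisher's exact test). The muscle shift, 0.22 on the log2 scale, was 0.13 without run 1 and 0.15 without run 3, and was called in neither case, while it was 0.39 and called without run 2.

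The 2 SNPs shifted towards opposite alleles were rs13460373 and rs48362062. The G allele of rs13460373 (WSB/EiJ-MOLF/EiJ) held 49.6%, 45.5% and 49.6% in DNA, 59.9%, 61.3% and 57.9% in liver, and 43.7%, 42.6% and 47.8% in muscle. Liver was above DNA and muscle in every run, while muscle runs overlapped those of DNA. In liver G over T rose 1.53-fold (1.34 to 1.75, adjusted p = 6.28e-10, Fisher's exact test), and in muscle T over G rose 1.20-fold (1.07 to 1.34, adjusted p = 0.00328, Fisher's exact test). T over G was 1.83-fold higher in muscle than in liver (1.63 to 2.06). The muscle shift was 0.26 on the log2 scale, and 0.17 and not called without run 1.

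The A allele of rs48362062 (FVB/NJ-PWD/PHJ) held 49.9%, 51.1% and 49.3% in DNA, 45.2%, 43.7% and 49.3% in liver, and 52.9%, 53.3% and 57.6% in muscle. Muscle was above DNA and liver in every run, and the last liver run reached the lowest DNA run. The shifts were of like size, 1.17-fold towards G in liver (1.07 to 1.27, adjusted p = 0.00145) and 1.16-fold towards A in muscle (1.05 to 1.29, adjusted p = 0.0109, both by Fisher's exact test). A over G was 1.35-fold higher in muscle than in liver (1.24 to 1.48, adjusted p = 1.18e-10, Fisher's exact test). On the log2 scale the liver shift went from 0.22 to 0.13 without run 2 and the muscle shift from 0.22 to 0.15 without run 3, and neither was then called. Without run 3 the liver shift was 0.34 and called. So the count of 2 SNPs with opposite shifts was 1 without any 1 of the runs, whereas muscle and liver were still called apart at both SNPs without each run in turn. With the quasi-binomial model over runs, the difference between the tissues was not called at rs48362062.

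Liver alone differed from DNA at 3 SNPs. The T allele of rs28146867 (FVB/NJ-PWD/PHJ) held 47.3%, 50.2% and 51.1% in DNA, 54.6%, 57.1% and 56.5% in liver, and 48.4%, 48.7% and 53.8% in muscle. Every liver run was above every run of DNA and muscle. The shift was 1.31-fold in liver (1.18 to 1.45, adjusted p = 8.34e-07) and 1.0-fold in muscle (0.907 to 1.11), and C over T was 1.31-fold higher in muscle than in liver (1.19 to 1.43, adjusted p = 4.80e-08, both p by Fisher's exact test). rs36819047 (WSB/EiJ-MOLF/EiJ) showed the same order, its T allele holding 53.4%, 50.3% and 50.1% in DNA, 58.4%, 55.0% and 57.9% in liver, and 51.6%, 53.2% and 52.1% in muscle. The liver shift was 1.26-fold (1.15 to 1.39), the muscle shift 1.04-fold (0.956 to 1.14), and C over T was 1.21-fold higher in muscle (1.10 to 1.33, adjusted p = 2.67e-04, Fisher's exact test).

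rs3685280 (A/J-C57BL/6J) was the noisiest amplicon of the set. Its C allele held 49.9% ± 3.87 of DNA reads (SD, n = 3 runs), 55.6% ± 4.94 of liver reads and 53.1% ± 7.30 of muscle reads, on 541 muscle reads in all. The runs of the 3 templates overlapped. The liver shift was 1.26-fold (1.09 to 1.45), and it went from 0.33 to 0.26 on the log2 scale and was not called without run 3. The ratio between the tissues was 1.15-fold (T over C higher in muscle, 0.945 to 1.39) and was not called.

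Muscle alone differed from DNA at 3 SNPs. The T allele of rs51286068 (FVB/NJ-PWD/PHJ) held 50.3%, 51.2% and 50.1% in DNA, 51.3%, 53.2% and 48.5% in liver, and 55.4%, 55.0% and 52.9% in muscle. Muscle was above DNA in every run, but muscle run 3 lay below liver run 2. The shift was 1.18-fold in muscle (1.11 to 1.27, adjusted p = 2.86e-06) and 1.02-fold in liver (0.939 to 1.12), and T over C was 1.16-fold higher in muscle than in liver (1.06 to 1.26, adjusted p = 0.00149, both p by Fisher's exact test). Without run 3 the last ratio went from 0.21 to 0.16 on the log2 scale and was not called.

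The other 2 SNPs with a muscle shift had liver values near those of muscle. The G allele of rs31434584 (A/J-C57BL/6J) held 50.7%, 47.2% and 51.6% in DNA, 52.9%, 51.8% and 52.5% in liver, and 52.9%, 54.0% and 55.8% in muscle. Both tissues were above DNA in every run, by 1.11-fold in liver (1.0 to 1.23, adjusted p = 0.0632, not called) and 1.18-fold in muscle (1.07 to 1.29, adjusted p = 0.00121, both by Fisher's exact test). The interval of muscle over liver was 0.961 to 1.17-fold. On the log2 scale the liver shift of rs31434584 went from 0.15 to 0.20 without run 3 and was called, and the muscle shift from 0.23 to 0.15 without run 2 and was not.

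The G allele of rs32323893 (FVB/NJ-PWD/PHJ) held 54.6%, 50.6% and 50.6% in DNA, 54.1%, 55.5% and 53.5% in liver, and 56.7%, 57.0% and 53.9% in muscle. The first DNA run lay within the range of the mRNA runs. The shift was 1.18-fold in muscle (1.06 to 1.31) and 1.09-fold in liver (0.988 to 1.20), and G over A was 1.08-fold higher in muscle (0.996 to 1.18, adjusted p = 0.0985, Fisher's exact test). On the log2 scale the liver shift was 0.13, and 0.23 and called without run 1, while the muscle shift was 0.24, and 0.18 and not called without run 2.

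At 6 SNPs neither tissue was called against DNA, yet at 3 of them the tissues were called apart from each other. In these 3 the tissue values lay on opposite sides of DNA. How often this occurs among all two-tissue SNPs was not counted. The A allele of rs29396200 (A/J-C57BL/6J) held 51.5%, 53.1% and 49.0% in DNA, 51.8%, 48.5% and 47.4% in liver, and 53.5%, 54.7% and 50.0% in muscle, with overlapping runs. A over G was 1.19-fold higher in muscle than in liver (1.06 to 1.33, adjusted p = 0.00407, Fisher's exact test). At rs26957205 (FVB/NJ-PWD/PHJ) the C allele held 49.7%, 51.5% and 51.3% in DNA, 50.5%, 49.9% and 48.8% in liver, and 53.1%, 52.3% and 54.4% in muscle. Muscle was above the other templates in every run, and C over T was 1.14-fold higher in muscle than in liver (1.04 to 1.26, adjusted p = 0.0113, Fisher's exact test).

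The smallest called difference was at rs13462879 (A/J-C57BL/6J). Its C allele held 51.6%, 48.5% and 50.7% in DNA, 49.8%, 49.2% and 49.7% in liver, and 52.8%, 49.7% and 52.6% in muscle, so that muscle run 2 lay below liver run 1. C over T was 1.08-fold higher in muscle than in liver (1.01 to 1.16, adjusted p = 0.0416, Fisher's exact test). Each of these 3 calls depended on a run. On the log2 scale the difference went from 0.25 to 0.18 without run 2 at rs29396200, from 0.20 to 0.15 without run 3 at rs26957205, and from 0.12 to 0.07 without run 1 or 0.11 without run 3 at rs13462879, and was not called in any of these cases.

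The last 3 SNPs had no called ratio between templates. At rs47859059 (CAST/EIJ-PWD/PHJ) the T allele held 52.9%, 47.2% and 47.7% in DNA, 49.6%, 50.9% and 49.5% in liver, and 49.1%, 53.8% and 57.3% in muscle. The muscle runs spread most, and the muscle shift went from 0.18 to 0.42 on the log2 scale and was called without run 1. At rs51271512 (A/J-C57BL/6J) the A allele held 48.3% of DNA reads over all runs (95% Wilson interval 46.0% to 50.6%), 48.8% of liver reads (47.1% to 50.4%) and 50.3% of muscle reads (48.1% to 52.4%). Its ratio of muscle over liver was within 0.953 to 1.18-fold, and on the log2 scale it went from 0.09 to 0.28 and was called without run 2.

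rs30872764 (CAST/EIJ-PWD/PHJ), with the strongest DNA skew, had the same skew in mRNA. The T allele held 80.6% of DNA reads over all runs (78.8% to 82.2%), 80.9% of liver reads (78.3% to 83.3%) and 79.7% of muscle reads (75.9% to 83.0%). Against DNA the ratio was 1.02-fold in liver (T over A, 0.838 to 1.24) and 1.06-fold in muscle (A over T, 0.828 to 1.35). These intervals rest on its 947 liver and 488 muscle reads and do not exclude differences within their bounds.

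Across the 13 SNPs with a called difference between muscle and liver, the shift from DNA was larger in liver at 8 and larger in muscle at 5. Over all 22 SNPs it was larger in liver at 12, and the same count over all two-tissue SNPs was not made. At all 13, the ratios of same-numbered runs favoured 1 allele throughout, as at all 31 called among the 50 two-tissue SNPs. The calls were made on the sum of these runs, so this agreement is not separate support for them. The runs of muscle and liver did not overlap at 10 of these 13 and at 1 of the other 9, which is 11 of 22 against 58.0% of all 50 two-tissue SNPs. For liver against DNA the runs did not overlap at 12 of 22 SNPs (59.4% of all 64), and for muscle against DNA at 11 of 22 (56.0% of all 75). By cross, the 8 SNPs of A/J-C57BL/6J had 5 called tissue differences, and 4 calls in liver and 4 in muscle against DNA. The 5 of FVB/NJ-PWD/PHJ had 4 called tissue differences, with 2 calls in liver and 3 in muscle. The 6 of CAST/EIJ-PWD/PHJ had 2 called tissue differences, with 4 calls in liver and 4 in muscle. The 3 of WSB/EiJ-MOLF/EiJ had 2 called tissue differences, 3 calls in liver and 2 in muscle. Over all SNPs tested, 62.0% were called between the tissues, 65.6% in liver and 62.7% in muscle. Shares over all SNPs of each cross were not computed, and whether the crosses differ was not tested. The SNPs of a cross share their RNA samples, so they are not replicates of the cross.

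Of the 22 SNPs, 18 were transitions and 4 transversions, and 12 were C/T. Muscle and liver differed at 12 of the 18 transitions, against 66.7% of the 42 transitions among all two-tissue SNPs, and at 1 of the 4 transversions, against 37.5% of 8. Among called C/T SNPs, liver was shifted towards C at 4 and towards T at 4, and muscle towards C at 3 and towards T at 3. The called ratio of muscle over liver was towards C at 6 C/T SNPs and towards T at 3. These directions were not counted over all SNPs and were not tested. Depth differed along with the calls. The SNPs with a called tissue difference had a median of 9318 liver and muscle reads (4948 to 14463) and the others 5674 (1435 to 9353). Its part in the calls was not tested. At the 9 SNPs without a call the upper bound of the tissue ratio ran from 1.16 to 1.42-fold.

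The 28 two-tissue SNPs with muscle in pool 3 and liver in pool 4 had muscle and liver called apart at 18 (64.3%), with a median size of 1.25-fold over the 28. The largest was 4.10-fold, against 2.00-fold here. At least 1.5-fold was reached at 6 of the 28 and 2 of the 22. Whether the 2 sets differ was not tested. Pool 4 held the liver amplicons of the 28 and the muscle amplicons of the 22, so the sets share a pool and differ in which tissue was in which pool.

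With the quasi-binomial model, 9 of the 22 SNPs were called in liver (45.3% of all tested), 6 in muscle (33.3%), 9 between the tissues (46.0%) and 1 in DNA against 1:1 (7.87%). With an extra variance between amplicons, estimated from the DNA ratios, 9 were called in liver (40.6%), 4 in muscle (32.0%) and 6 between the tissues (44.0%).

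Under all planned settings that give a test, other than a 1.5-fold minimum and mRNA against 1:1, the call of muscle over liver was kept at 5 of 13 SNPs, namely rs29317345, rs13460373, rs33431534, rs28146867 and rs27073510. Liver against DNA kept 9 of 13 calls, at rs29317345, rs33431534, rs27073510, rs31853413, rs13460433, rs50253287, rs13460373, rs28146867 and rs36819047. Muscle against DNA kept 3 of 13, at rs29317345, rs27073510 and rs27047329. How many calls were kept over all SNPs tested was not counted. The exact tests and the Mantel-Haenszel test cover counting error only. The quasi-binomial model uses the spread between runs, and the extra variance is the spread of DNA ratios about 1:1 between SNPs. This variance includes any skew that the templates of a SNP share, so it does not measure the spread between amplifications of 1 SNP. Each template had 1 amplification, so no test rests on repeated amplifications. PCR reads without molecular identifiers are not independent molecules.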

How the data were processed

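The authors deposited read counts of the 2 bases at each SNP, for every amplicon and run, from 454 pyrosequencing of pooled PCR products, per the file headers and the labels' protocols. The rule that assigned reads to alleles is not given in the sources used here. Neither is a build. The SNPs and tests were chosen with earlier results of these data known. Alleles were matched between files by base and summed over the 3 runs, which are technical. Fisher's exact test compared templates and an exact binomial test compared DNA with a share of 0.5, both two-sided. Adjustment was by Benjamini-Hochberg over all SNPs of each comparison, with a threshold of 0.05 and at least 20 reads per template. Folds had 0.5 added to each count and 95% intervals from the counting error. The share of each run was given for all SNPs with a called tissue difference and the 5 others with most reads. Their folds, intervals and adjusted p were not printed for every comparison. Scripts were tested on simulated data. Python 3.11.15, SciPy 1.17.1 and statsmodels 0.14.6 were used.

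Alternatives were a Mantel-Haenszel test over runs, a quasi-binomial model over runs, an extra SD of 0.0754 (log2) per amplicon estimated from the DNA ratios, a minimum of 1000 reads or none, a 1.5-fold minimum, Benjamini-Yekutieli adjustment, mRNA against 1:1, nothing added to counts, the mean of run ratios, and each run left out. Pool 3 entered only the adjustment, the values given over all SNPs or all two-tissue SNPs, and the set of 28 SNPs.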

Additional observations from a re-analysis of the deposited data

Results flagged for a closer look

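The ratio of muscle over liver departed from 1 at 13 SNPs whose 2 tissues were each set against DNA, so the tissue effects themselves were tested against each other (Fisher's exact test, adjusted over 50 SNPs). On the log2 scale it was 1.0 at rs29317345 (C over T), 0.87 at rs13460373 (T over G), 0.45 at rs33431534 (T over C), 0.44 at rs48362062 (A over G), 0.38 at rs28146867 (C over T) and 0.32 at rs27073510 (G over A). It was 0.27 at rs36819047 (C over T), 0.25 at rs29396200 (A over G), 0.22 at rs31853413 (C over T), 0.21 at rs51286068 (T over C), 0.20 at rs26957205 (C over T), 0.18 at rs27047329 (T over C) and 0.12 at rs13462879 (C over T).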

How the results depend on the processing

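A minimum of 1000 reads or none changed no call at the SNPs kept. Nothing added to counts, and the mean of run ratios, give a ratio and no test; neither turned a called direction. A 1.5-fold minimum left 3 liver calls, 1 muscle call, 2 calls between tissues, 1 DNA call, and 0 SNPs called in both tissues towards the same or towards opposite alleles. With the quasi-binomial model, muscle calls went from 13 to 6, DNA calls from 4 to 1, same-allele SNPs from 8 to 4 and opposite SNPs from 2 to 0. With extra variance between amplicons, muscle calls were 4, calls between tissues 6, same-allele SNPs 3 and opposite SNPs 0. Benjamini-Yekutieli adjustment left 5 same-allele SNPs and 1 opposite SNP. Leaving out each run gave 11 to 13 liver calls, 10 to 11 muscle calls, 10 to 13 between tissues, 4 to 5 DNA calls and 6 to 8 same-allele SNPs, and left 1 opposite SNP each time, rs13460373 or rs48362062. With mRNA set against 1:1 in place of DNA, liver calls were 14 and muscle calls 17. Without DNA as reference, rs30872764 in muscle went from 0.08 to -1.97 (log2, A over T), which is the skew its DNA also had.

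The labels do not state whether a run number marks the same sequencing run in every pool. The deviations of same-numbered runs correlated above 0.1 in 4 of 9 pairs of templates and runs (-0.12 to 0.67). The highest value was for liver and muscle in run 1, while this pair had -0.12 in run 2 and 0.14 in run 3. With the run as a block (Mantel-Haenszel), liver calls were 13, muscle calls 12 and calls between tissues 13. The call that was not made with the block was rs31872413 in muscle (log2 -0.20, A over C). The cause of these changes was not tested. Reads limit the low end: at rs3685280 and rs30872764 muscle had 541 and 488 reads.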
